A study of Homo sapiens with 7 samples.

Results

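In all, 9 genes were chosen because single probe sets within them stood far from the rest of their gene within hours of camptothecin treatment: WAC, UGGT1, R3HDM1, PNLDC1, TAP1, YIPF4, CACNA1A, CARF and RAD51B. All probe sets whose name opens with the NCBI Gene ID of one of these 9 genes were taken, 2127 of the 2108940 on the array. On the array used, ExonHit's Human Splice Array, a gene is covered by many short probe sets, and the deposited values are on a log2 scale. The RNA came from HCT116, an established human colon carcinoma cell line. Cells were exposed to 10 µM camptothecin (CPT), which poisons topoisomerase I by holding it on cleaved DNA, for 1, 2 or 4 h (CPT early, n = 3) or for 15 or 20 h (CPT late, n = 2). Cells that received the solvent alone, 0.1% DMSO, were taken after 4 or 20 h (DMSO, n = 2). Each time has 1 array, and the labels do not state separate cultures, so p-values measure a difference against a spread that may be technical or due to time.

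A primary transcript is cut and joined by the spliceosome, and a gene can give several mRNAs that differ in the exons they join, in where they start and in where they end. A probe set that lies in one of these forms only can move while the rest of its gene stays in place. The 9 genes share no pathway. WAC is an adaptor of histone H2B ubiquitination, UGGT1 a sensor of misfolded glycoproteins in the endoplasmic reticulum, TAP1 a subunit of the peptide transporter that feeds MHC class I, and RAD51B a protein of DNA repair by homologous recombination. CACNA1A is the pore subunit of a neuronal calcium channel, CARF a calcium-responsive transcription factor, PNLDC1 a nuclease known in the mouse for trimming piRNAs in the germ line, and YIPF4 a membrane protein of the Golgi family YIPF. R3HDM1 encodes a protein with an R3H domain, and its gene overlaps that of the microRNA MIR128-1.

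The gene value of TAP1 rose late, as did those of most measured genes of its own pathway, and for that reason the DNA before its start is shown. The sequence is the 250 bases before the start of TAP1 in RefSeq, build GRCh38.p14, chr6:32853705-32853954, minus strand, with motif matches in capitals.
TAP1 upstream: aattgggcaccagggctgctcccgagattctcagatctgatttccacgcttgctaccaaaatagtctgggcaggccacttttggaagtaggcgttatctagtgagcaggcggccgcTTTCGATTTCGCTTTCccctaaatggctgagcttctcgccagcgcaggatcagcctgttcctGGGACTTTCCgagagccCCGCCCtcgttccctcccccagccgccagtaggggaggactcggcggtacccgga
Counted from the first base printed, the capitals mark a pair of overlapping matches to the interferon-stimulated response element core, GAAA followed by NN and GAAA, on the opposite strand (bases 117 to 126 and 123 to 132), an NF-kappaB site (179 to 188) and a GC box GGGCGG on the opposite strand (196 to 201). Both strands of 35116 RefSeq promoters, each with 50 further bases after the start, were searched for these letters. The response element core was present in 3.57% of them, the NF-kappaB site in 5.91% and the GC box in 45.0%. Another TAP1 window, chr6:32852712-32853011, held a GC box and an interferon-gamma activated site TTCNNNGAA, present in 7.66% of promoters. The windows of the other members held matches too. WAC, which fell late, had an NF-kappaB site, and YIPF4, which did not pass, an interferon-gamma activated site. GC boxes were found in WAC, UGGT1, R3HDM1, PNLDC1 and CACNA1A as well. These matches describe letters and do not show that a factor was bound. Whether they bear on the rise of TAP1 was not tested. The sources used here give no probe sequences, so the place of each probe set within its gene is not stated.

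A probe set is written here by the number of its event and a letter, as in the array's own names. What the letters B, C, D, E, F, T, X, Y and Z stand for is not given in the sources used here. Kept probe sets are those with a mean over all 7 arrays above the median of all rows, 2.95, and 1041 of the 2127 were kept. The gene value is the median of the kept probe sets of a gene. Subtracting that median from the log2 value of a probe set gives its relative value, which shows how it stands within its gene. The genes were chosen on relative values in CPT early minus DMSO, and everything said of those differences is a description with no test. Probe sets were called switching where that difference was at least 3 in size, a limit set after the values were seen.

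Of the kept probe sets, 13 switched, 8 upward and 5 downward. Among all genes, 281 of 938148 kept probe sets (0.03%), in 225 genes, lay past the same limit, 144 upward and 137 downward. Most arrays in the mean that decides which rows are kept are CPT arrays. A probe set dim in DMSO, such as YIPF4 005.1-B (1.49 and 1.96), could thus be kept through its CPT arrays alone. Nothing is read from the split by direction. The member just inside was WAC 020.1-B, with a relative difference of −3.15. Just outside were WAC 014.1-B with 2.93, TAP1 000.3-Z with 2.90, CARF 002.2-T with 2.69 and WAC 013.1-B with 2.66. Of the other 1028 kept probe sets, 938 (91.2%) lay within 1 of their gene's own difference in CPT early, as did 94.8% of kept probe sets of all genes. Of the switching probe sets, 6 carry the letter Y, 4 the letter B, and 1 each Z, D and T. Among the 281 probe sets of all genes, 40.2% carry Y, 25.3% B and 18.9% Z, whereas Y makes up 3.51%, B 17.4% and Z 4.36% of the kept probe sets.

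**Figure D1:**
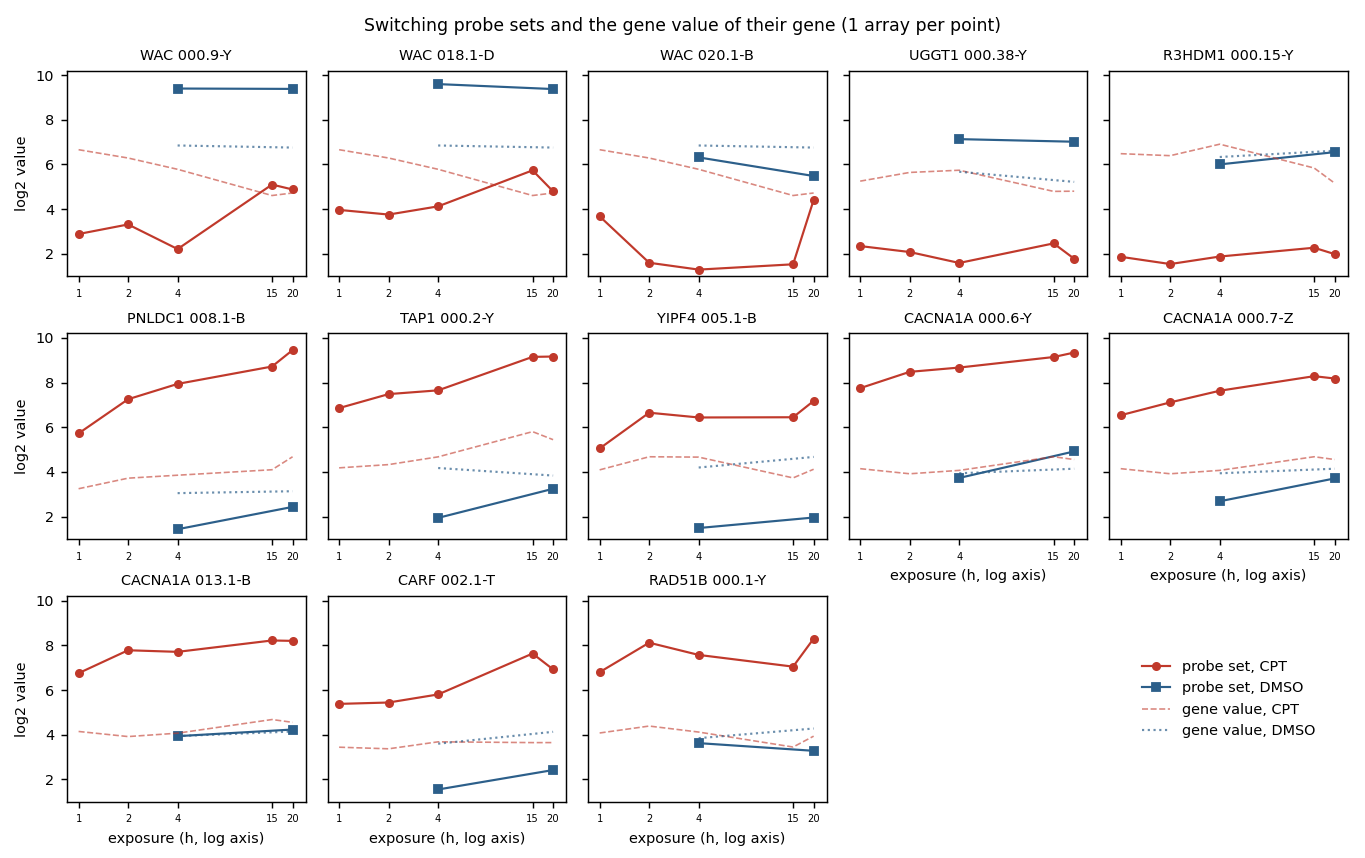
Log2 values of the 13 switching probe sets against hours of exposure (log axis), 1 array per point, with CPT as circles and DMSO as squares. The broken lines give the gene value in CPT and DMSO. In every panel the 1 h CPT array already lies outside the DMSO points.

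Of the 5 downward switches 3 were in WAC, and WAC 000.9-Y was the largest of them. WAC 000.9-Y read 2.89, 3.31 and 2.21 after 1, 2 and 4 h of CPT and 5.10 and 4.88 after 15 and 20 h, against 9.40 and 9.38 in DMSO at 4 and 20 h. The CPT early mean was 2.80 ± 0.56 (SD, n = 3) and the DMSO mean 9.39 ± 0.01 (SD, n = 2), a 96.0-fold lower value and a relative difference of −6.03. Where the mean of either group lies under 2.95, the limit used for kept rows, a fold is uncertain, and this holds for CPT early here. Its values went part of the way back on the late arrays, which still lay below both DMSO arrays. The X probe set of the same number, 000.9-X, read 8.39, 7.53 and 7.26 in CPT early and 6.15 and 6.13 in CPT late, against 7.67 and 8.25 in DMSO, and its early and DMSO arrays overlapped. The Z probe set, 000.9-Z, stayed dim, at 1.77 or less on each of the 7 arrays.

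WAC 018.1-D behaved much the same. It read 3.97, 3.76 and 4.12 in CPT early and 5.74 and 4.79 in CPT late, against 9.60 and 9.38 in DMSO. Its neighbours in the event differed among themselves: 018.1-B was lower as well, with 1.76, 3.10 and 2.47 in CPT early against 5.20 and 4.89 in DMSO, whereas 018.1-E read 8.61, 7.66 and 7.61 against 8.04 and 7.91. WAC 020.1-B was less even. It read 3.68, 1.60 and 1.29 in CPT early and 1.53 and 4.41 in CPT late, against 6.32 and 5.48 in DMSO, with the 20 h CPT array nearer to the DMSO arrays than the 15 h array. The F probe set of that event, 020.1-F, read 9.51, 8.91 and 8.31 in CPT early, against 9.81 and 9.59 in DMSO. It lay below both DMSO arrays as well, and the 5 other probe sets of the event had early differences from −2.38 to −0.64. Upward, WAC 014.1-B read 5.92, 6.56 and 6.00 in CPT early and 6.00 and 5.69 in CPT late, against 3.60 and 3.98 in DMSO, with all CPT arrays above both DMSO arrays.

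UGGT1 and R3HDM1 each held 1 probe set that was bright in DMSO and dim on all CPT arrays. UGGT1 000.38-Y read 2.35, 2.08 and 1.59 in CPT early and 2.47 and 1.78 in CPT late, against 7.13 and 7.02 in DMSO, and was 33.6-fold lower in CPT early. R3HDM1 000.15-Y read 1.87, 1.54 and 1.88 in CPT early and 2.27 and 1.99 in CPT late, against 6.00 and 6.55 in DMSO, and was 22.9-fold lower in CPT early. Both probe sets lay under 2.95 on all CPT arrays, so these folds are uncertain too. The X probe sets of the same numbers showed no such drop: 000.38-X of UGGT1 read 2.48, 3.74 and 3.28 in CPT early against 3.84 and 2.97 in DMSO, and 000.15-X of R3HDM1 read 5.34, 6.07 and 4.66 against 3.13 and 5.51. The first stood near 2.95 in DMSO, which left little room for a drop. The DMSO values of the second lay far apart.

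Upward, PNLDC1 008.1-B moved most. It read 5.72, 7.25 and 7.94 in CPT early and 8.72 and 9.45 in CPT late, against 1.43 and 2.43 in DMSO, 32.9-fold higher in CPT early and 142-fold higher in CPT late. Its DMSO mean lay under 2.95, so both folds are uncertain. The value was higher at each later time. Of the 5 other probe sets of this event 3 were too dim to be kept, and their early differences ran from −0.10 to 0.36. PNLDC1 016.1-B, another B probe set, read 1.80, 4.85 and 5.51 in CPT early and 7.90 and 6.55 in CPT late, against 1.49 and 2.23 in DMSO, and was within the DMSO range at 1 h.

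TAP1 000.2-Y read 6.86, 7.48 and 7.65 in CPT early and 9.15 and 9.17 in CPT late, against 1.94 and 3.25 in DMSO. That is 26.7-fold higher in CPT early and 94.5-fold higher in CPT late, folds that are uncertain because the DMSO mean lay under 2.95. The X and Z probe sets of the same number stayed low: 000.2-X read 2.83, 2.18 and 2.05 in CPT early against 3.85 and 3.18 in DMSO, and 000.2-Z 3.65, 2.82 and 2.27 against 2.69 and 2.42. Another 3 TAP1 probe sets, named after their values were seen, were higher on all CPT arrays than on both DMSO arrays. Others that did the same were not counted, and the gene value of TAP1 rose late as well. TAP1 000.3-Z read 3.87, 6.03 and 5.47 in CPT early against 1.60 and 2.07 in DMSO, 000.6-Y 3.63, 4.94 and 4.57 against 1.46 and 1.57, and 003.1-D 2.94, 4.83 and 4.54 against 1.49 and 1.84.

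YIPF4 005.1-B read 5.05, 6.65 and 6.44 in CPT early and 6.45 and 7.18 in CPT late, against 1.49 and 1.96 in DMSO, 20.0-fold higher in CPT early, an uncertain fold since both DMSO values lay under 2.95. The T probe set of that event, 005.1-T, read 2.87, 2.84 and 3.45 in CPT early against 2.15 and 3.40 in DMSO, so these overlapped. The D and E probe sets were too dim to be kept.

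CACNA1A held 3 upward switches in 3 different events. CACNA1A 000.6-Y read 7.75, 8.48 and 8.67 in CPT early and 9.14 and 9.34 in CPT late, against 3.73 and 4.92 in DMSO. CACNA1A 000.7-Z read 6.54, 7.11 and 7.63 in CPT early and 8.29 and 8.18 in CPT late, against 2.69 and 3.71 in DMSO. The third, 013.1-B, read 6.75, 7.78 and 7.71 in CPT early and 8.22 and 8.20 in CPT late, against 3.94 and 4.23 in DMSO. In each of the 3 all CPT arrays lay above both DMSO arrays, and the late arrays were the highest. CACNA1A 014.1-F, with 6.35, 5.95 and 5.93 in CPT early against 3.45 and 3.99 in DMSO, was higher on every CPT array too. The whole gene stood between 3.92 and 4.15 in CPT early, against 3.94 and 4.14 in DMSO, so its median overlapped between the groups.

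CARF 002.1-T read 5.38, 5.44 and 5.80 in CPT early and 7.63 and 6.92 in CPT late, against 1.55 and 2.42 in DMSO. The T and D probe sets of the neighbouring number behaved alike: 002.2-T read 5.20, 4.62 and 5.37 in CPT early against 2.20 and 3.27 in DMSO, and 002.2-D 4.28, 3.35 and 3.66 against 1.58 and 1.73. In the other direction, CARF 000.6-X read 3.39, 2.25 and 2.92 in CPT early and 2.74 and 3.11 in CPT late, against 5.13 and 5.16 in DMSO. RAD51B 000.1-Y read 6.80, 8.12 and 7.57 in CPT early and 7.05 and 8.30 in CPT late, against 3.62 and 3.28 in DMSO, 16.5-fold higher in CPT early. Its X partner, 000.1-X, read 4.25, 4.52 and 4.31 in CPT early against 4.13 and 4.34 in DMSO. RAD51B overlaps 12 annotated genes in RefSeq, among them RAD51B-AS1, and TAP1 overlaps PSMB8-AS1. Signal of overlapping genes cannot be told apart without probe positions.

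Opposite to the switch of their gene, the early extremes did not reach the limit of 3. That limit was set after the values were seen, so nothing is read from this. WAC, which switched downward, came nearest, with 2.93 in 014.1-B. R3HDM1 026.1-B, with a relative difference of 1.82, read 3.71, 6.69 and 5.65 in CPT early against 4.58 and 2.23 in DMSO, and UGGT1 000.2-X, with 1.52, read 5.57, 6.55 and 6.06 against 4.38 and 4.50. The arrays of R3HDM1 026.1-B overlapped between CPT early and DMSO, and those of UGGT1 000.2-X did not. In the 6 genes that switched upward, the lowest early differences were −1.93 in CARF 000.6-X, −1.80 in PNLDC1 006.1-T, −1.55 in TAP1 000.2-X, −1.53 in CACNA1A 025.1-F, −1.09 in RAD51B 021.1-B and −0.73 in YIPF4 005.2-F.

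All 13 switching probe sets lay outside the range of the DMSO arrays at 1 h, in CPT early and in CPT late, as did 63.8%, 22.1% and 60.6% of all kept probe sets. The early windows are those that chose these probe sets, so nothing is read from their count. On the log2 scale, much of the difference from the DMSO mean seen at 4 h was present at 1 h. The share ran from 63.1% in PNLDC1 008.1-B to 103% in WAC 018.1-D, with WAC 020.1-B lower at 48.2%. Shares of the linear signal were not computed. These early values also chose the probe sets, so the shares are a description. In the late window the relative differences of the upward switches ran from 3.55 in CACNA1A 013.1-B to 5.86 in PNLDC1 008.1-B. Those of UGGT1 000.38-Y and R3HDM1 000.15-Y were −4.30 and −3.17. Those of WAC were smaller than early, −2.26 for 000.9-Y, −2.08 for 018.1-D and −0.79 for 020.1-B, while the value of the gene itself was also lower. These late differences use the same DMSO arrays as the choice of the genes and carry no test.

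**Figure D2:**
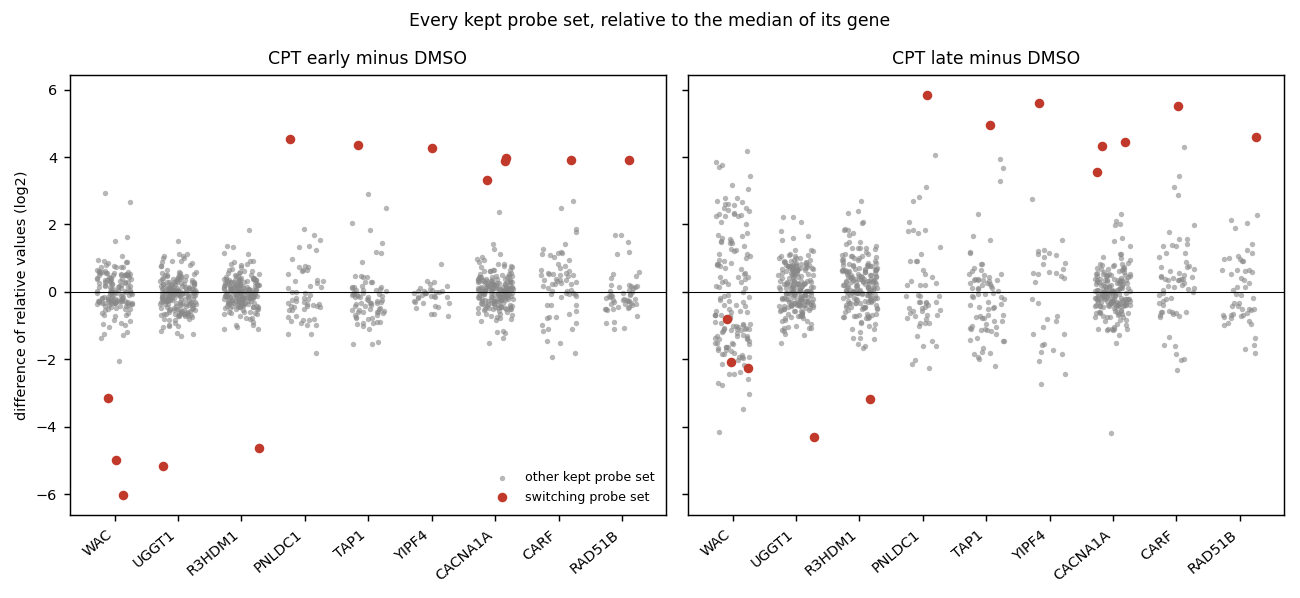
Difference of the relative value (log2) for every kept probe set of the 9 genes, CPT early minus DMSO on the left and CPT late minus DMSO on the right, with switching probe sets in red. In CPT early 91.2% of the other probe sets lie within 1 of 0, and in CPT late the cloud of WAC is the widest, with 33.8% within 1.

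Whether the genes as a whole changed was asked with limma on gene values, adjusted over all 15990 genes. In CPT late against DMSO 3 of the 9 genes were higher (TAP1, PNLDC1 and CACNA1A), 3 lower (WAC, R3HDM1 and UGGT1), and 3 did not pass (YIPF4, RAD51B and CARF). Of all genes 33.5% were higher and 18.1% lower, 51.5% in either direction, so 6 of 9 is not far from the background. After centring each array on its median gene value, 2083 genes were higher and 3392 lower, in place of 5352 and 2889, and the median difference of all genes in CPT late, 0.34, became 0.10. In CPT early the median difference of all genes was 0.03, and the arrays of 3 of the 9 genes (WAC, PNLDC1 and TAP1) did not overlap the DMSO arrays, as for 21.8% of all genes. In CPT late 7 of the 9 did not overlap, as for 78.6% of all genes. Against CPT early, CPT late was higher in TAP1, PNLDC1 and CACNA1A and lower in WAC, R3HDM1 and UGGT1, where 36.2% of all genes were higher and 19.1% lower.

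**Figure D3:**
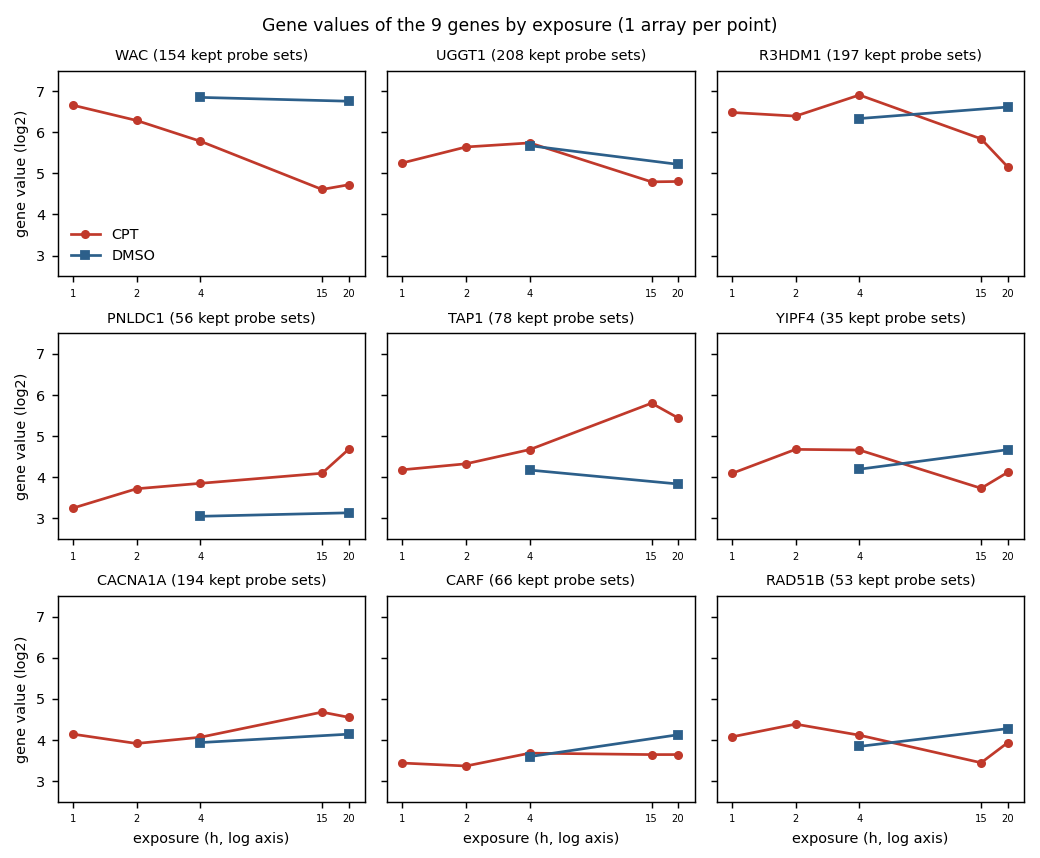
Gene value (log2) of the 9 genes against hours of exposure (log axis), with CPT as circles and DMSO as squares, 1 array per point. WAC lies lower and TAP1 and PNLDC1 higher at 15 and 20 h, whereas CARF and RAD51B overlap the DMSO arrays.

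WAC fell. Its gene value read 6.66, 6.29 and 5.78 in CPT early and 4.61 and 4.72 in CPT late, against 6.85 and 6.76 in DMSO. The values were lower at each of the 3 early times in turn, and the late arrays lay below all others. In CPT late against DMSO the difference was −2.14 ± 0.27 (SE), 4.40-fold lower, with an adjusted p of 0.000285. In all, 112 of the 154 kept WAC probe sets were lower by more than 2-fold and 6 were higher.

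TAP1 and PNLDC1 rose. TAP1 read 4.18, 4.33 and 4.68 in CPT early and 5.80 and 5.44 in CPT late, against 4.18 and 3.84 in DMSO, a late difference of 1.62 ± 0.23 (SE) and an adjusted p of 0.000465. PNLDC1 read 3.25, 3.72 and 3.85 in CPT early and 4.10 and 4.68 in CPT late, against 3.05 and 3.14 in DMSO, a late difference of 1.30 ± 0.25 (SE) and an adjusted p of 0.00263. In CPT late TAP1 was 3.07-fold and PNLDC1 2.45-fold above DMSO. PNLDC1 stood low on all arrays, with 122 of its 178 probe sets too dim to be kept. Probe sets dim in DMSO could enter its gene value through their CPT arrays, which are most of the arrays in the mean that decides which rows are kept. The median DMSO level of its kept B, T and Z probe sets was 2.73, 2.77 and 2.49, under 2.95, and that of its other letters lay above. The test of its late rise is thus not free of the filter. Leaving out any single array did not end the late calls of WAC, TAP1 or PNLDC1. Pairing CPT and DMSO by time, with the 4 h and 20 h arrays alone and time as a block, joins an early and a late CPT array into 1 effect. It gave −1.55 for WAC, 1.05 for TAP1 and 1.17 for PNLDC1. With limma none of these passed (adjusted p = 0.350, 0.361 and 0.3185), nor did any other gene, 2029 having an unadjusted p under 0.05. With so few arrays this fit had little power, and nothing is read from the lost calls.

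R3HDM1, UGGT1 and CACNA1A changed less. R3HDM1 read 6.48, 6.39 and 6.91 in CPT early and 5.84 and 5.16 in CPT late, against 6.33 and 6.61 in DMSO (late difference −0.97, adjusted p = 0.0166). UGGT1 read 5.25, 5.64 and 5.74 in CPT early and 4.79 and 4.80 in CPT late, against 5.67 and 5.22 in DMSO (−0.65, adjusted p = 0.0413). CACNA1A read 4.15, 3.92 and 4.07 in CPT early and 4.68 and 4.55 in CPT late, against 3.94 and 4.14 in DMSO (0.58, adjusted p = 0.0184). These 3 calls rest on single arrays. R3HDM1 lost its call when the DMSO array of 20 h (adjusted p = 0.0761) or the CPT array of 20 h (0.112) was left out. UGGT1 lost it without DMSO at 4 h (0.237) or CPT at 2 h (0.0538), 15 h (0.117) or 20 h (0.112). CACNA1A lost it without DMSO at 4 h (0.0933) or CPT at 15 h (0.098) or 20 h (0.0544), and after centring, where its difference was 0.35 (adjusted p = 0.0925).

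YIPF4, RAD51B and CARF did not pass. YIPF4 read 4.09, 4.68 and 4.66 in CPT early and 3.73 and 4.12 in CPT late, against 4.20 and 4.67 in DMSO (late difference −0.51, adjusted p = 0.11). It passed after centring, at −0.74 (adjusted p = 0.0451). RAD51B read 4.08, 4.39 and 4.12 in CPT early and 3.45 and 3.94 in CPT late, against 3.85 and 4.28 in DMSO (−0.37, adjusted p = 0.174). CARF read 3.44, 3.37 and 3.68 in CPT early and 3.65 and 3.65 in CPT late, against 3.60 and 4.13 in DMSO (−0.22, adjusted p = 0.385), and its sign turned under several settings.

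The other probe sets of the genes were compared with DMSO in CPT late as relative values. Of the 1028 kept probe sets that did not switch, 77 (7.49%) were higher and 61 (5.93%) lower than DMSO with limma, where 4.39% and 3.03% of all kept probe sets were. WAC gave 37 of the 77 and 38 of the 61, which is 24.5% and 25.2% of its 151 non-switching probe sets. The excess over all kept probe sets lay mainly in WAC. The gene value of WAC fell by 2.14, so a WAC probe set that fell less than its gene can count as higher here. In log2 value 6 of the 154 kept WAC probe sets were higher by more than 2-fold and 112 lower. The WAC counts rest on single arrays: they were 16 higher and 8 lower when DMSO at 4 h was left out, 23 higher when CPT at 20 h was, 20 lower when DMSO at 20 h was, and 23 lower when CPT at 15 h was. The other 8 genes gave 1 to 10 higher (2.09% to 12.3% of their non-switching probe sets) and 1 to 6 lower (0.483% to 17.6%) each. These shares lay on both sides of the 4.39% and 3.03% of all kept probe sets, and nothing is read from the counts. Of these 16 counts, 15 moved by more than 1.5 times when some single array was left out.

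WAC 025.1-B lost nearly all its signal late. It read 8.30, 8.19 and 6.90 in CPT early and 1.62 and 2.53 in CPT late, against 8.47 and 8.25 in DMSO, a relative difference of −4.15 ± 0.40 (SE) with an adjusted p of 4.11e-05. WAC 005.1-C went the other way, with 8.44 and 8.49 in CPT late against 5.87 and 7.81 in DMSO (relative difference 3.76). The highest non-switching probe set of WAC in CPT late was 014.1-B, with a relative difference of 4.19. CACNA1A 004.8-B read 5.79, 6.50 and 6.68 in CPT early and 3.86 and 1.54 in CPT late, against 5.97 and 6.63 in DMSO (relative difference −4.18, adjusted p = 0.000935). YIPF4 003.1-B read 6.74, 7.46 and 7.17 in CPT early and 3.78 and 4.12 in CPT late, against 6.98 and 7.42 in DMSO (−2.74, adjusted p = 0.000323). In CPT early the relative differences of WAC 025.1-B, CACNA1A 004.8-B and YIPF4 003.1-B were −0.01, 0.02 and −0.12. Leaving out any single array ended none of the late calls of these 3. The lowest probe sets of TAP1 (000.8-Z, −2.20, adjusted p = 0.0289), CARF (014.1-D, −2.31, 0.0178) and RAD51B (021.1-B, −1.82, 0.0448), and the highest non-switching ones of UGGT1 (012.1-E, 2.23, 0.0284) and R3HDM1 (007.1-B, 2.71, 0.0157), lost their calls when single arrays were left out. PNLDC1 013.1-C (−2.25, adjusted p = 0.0622) did not pass.

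Along the numbers of the X probe sets, WAC was not lowered evenly. X probe sets 1 and 3 stood at 0.48 and −0.55 in CPT late minus DMSO, while numbers 4, 5, 6 and 7 stood at −3.89, −4.06, −3.45 and −3.09. Numbers 9 to 12 stood at −1.83, −3.15, −4.17 and −1.69. In CPT early the same 10 probe sets ran from −1.09 to −0.06. Whether the numbers follow the order of the exons is not stated. In R3HDM1 numbers 5, 8 and 10 were lower by more than 2 (−2.53, −2.58 and −2.09), while 1, 15, 17, 18 and 24 lay above 0. TAP1 number 6 stood 1.98 higher and number 7 at −0.23.

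**Figure D4:**
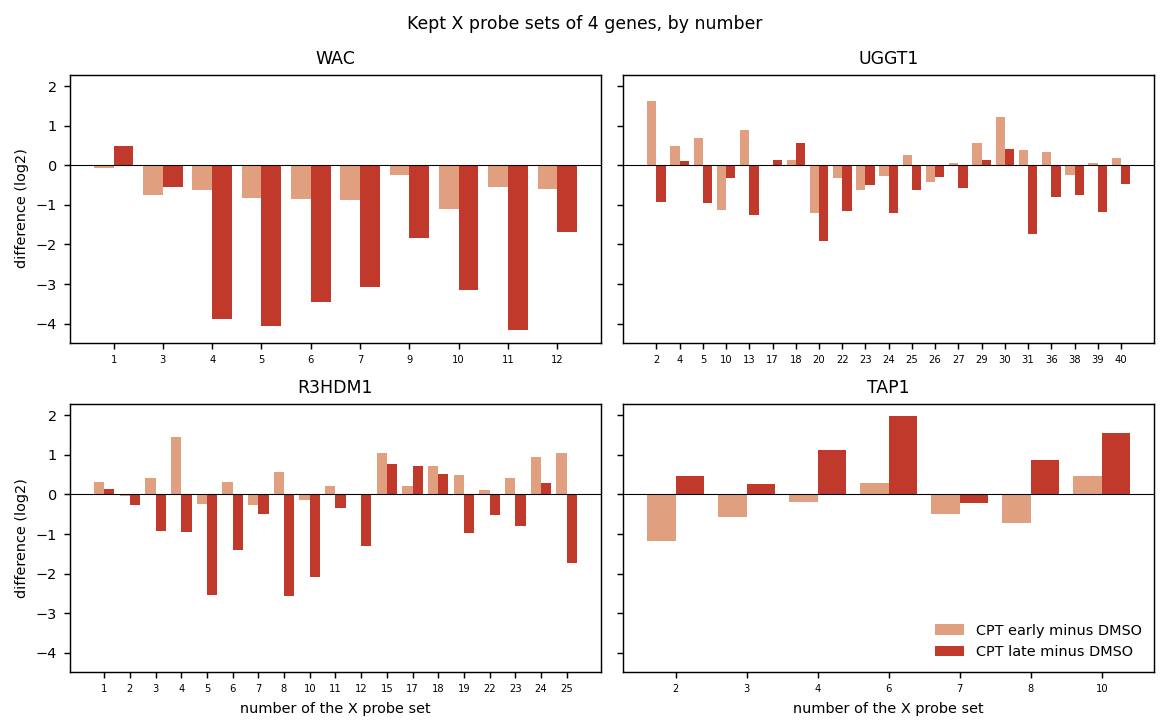
Difference in log2 value of the kept X probe sets of WAC, UGGT1, R3HDM1 and TAP1 by their number, CPT early minus DMSO in pale and CPT late minus DMSO in dark bars. In WAC numbers 1 and 3 stand at 0.48 and −0.55 and the others between −1.69 and −4.17 in CPT late.

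Genes that work with the members were read from gene lists, as gene values in CPT late against DMSO with limma. Among all genes 33.5% were higher and 18.1% lower, with a median of 0.34. Of 13 genes of H2B ubiquitination, the pathway of WAC, 7 fell and 1 rose, with a median of −0.91. UBE2B, one of the ubiquitin-conjugating enzymes for H2B, fell by 2.95, USP7 by 2.51, and LEO1 and RTF1 of the PAF1 complex by 2.41 and 2.31. RNF20 (−0.52) and RNF40 (0.23), the ligase subunits that WAC binds, did not pass. USP44, a deubiquitinase, was the riser with 0.87, a call lost after centring and without the 20 h DMSO or the 15 h CPT array.

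Genes of MHC class I antigen presentation rose with TAP1: 10 of 14 passed upward and 0 downward (0 at an unadjusted p under 0.05 as well), with a median of 0.76. PSMB8, an immunoproteasome subunit, rose by 1.79, the peptide-trimming enzyme gene ERAP2 by 1.31, and the class I heavy chain genes HLA-E and HLA-C by 1.24 and 1.17. TAP2, the partner subunit of TAP1, stood at 4.04 ± 0.08 in CPT late, against 3.63 ± 0.03 in DMSO (SD, n = 2 each, adjusted p = 0.0592), and PSMB9 differed by 0.03. Probes of HLA genes can share sequence, so their separate values are uncertain. Without the 4 h DMSO array 6 of the 14 passed. In CPT early no gene of this list passed with limma, 2 having an unadjusted p under 0.05, and 0.0938% of all genes passed. Of 15 interferon target genes 6 rose and 0 fell (0 also at an unadjusted p under 0.05), with a median of 0.38, close to the 0.34 of all genes. IFI6 rose by 1.12, ISG15 by 0.92, IRF1 by 0.90 and IFI27 by 0.78. The 6 became 1 when DMSO at 4 h was left out, 3 when CPT at 15 h was, 2 when CPT at 20 h was, and 3 after centring. Leukocyte markers had 1 of 5 higher (CD14), and their summed log2 gene values were 30.1 and 30.5 in CPT late, against 27.4 and 27.6 in DMSO. The DMSO levels of these markers ran from 3.42 to 10.9, so the brightest weighs most in the sums. The part of leukocyte markers in the result was not tested.

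**Figure D5:**
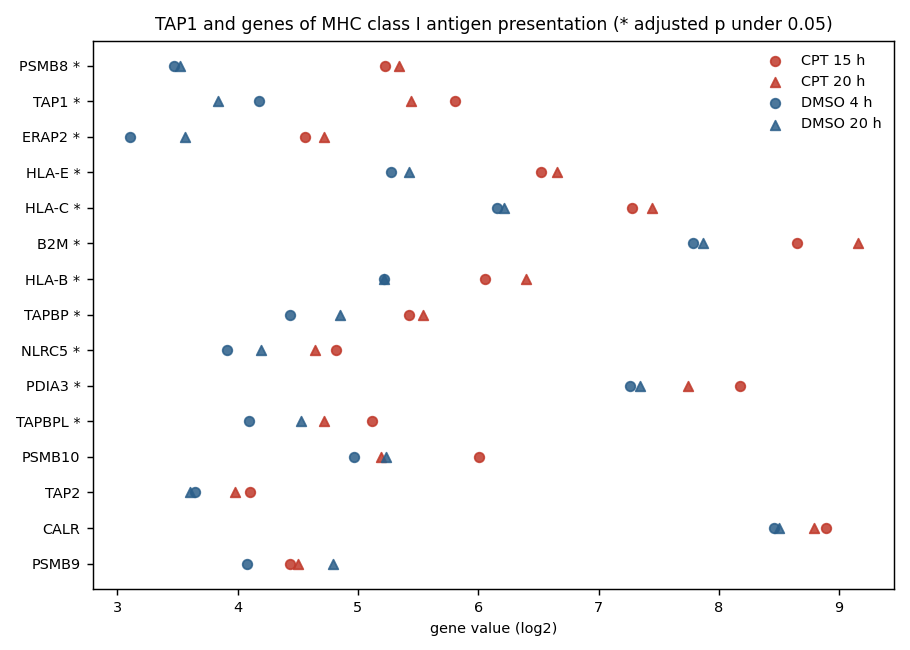
Gene values (log2) of TAP1 and the 14 measured genes of MHC class I antigen presentation on the 15 and 20 h CPT arrays (red) and the 4 and 20 h DMSO arrays (blue), ordered by their late difference. TAP1 and the 10 starred list genes lie higher on both CPT arrays than on both DMSO arrays.

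In the pathway of RAD51B, 6 of 12 genes fell and 2 rose, with a median of −0.20. RAD51C, which acts in the same repair complex as RAD51B, fell by 1.96, BRCA1 by 1.79, XRCC2 by 1.30 and BRCA2 by 1.15, while RAD51B itself, with −0.37, did not pass. With DMSO at 4 h or CPT at 20 h left out 3 fell, and the 2 risers became 1 to 4 as single arrays were left out. Of 17 genes of glycoprotein folding, the pathway of UGGT1, 5 rose and 4 fell (median 0.38), which is near the 33.5%, 18.1% and 0.34 of all genes. Its paralogue UGGT2 fell by 1.03, the mannosidase-like gene EDEM3 by 1.31, DERL2 by 1.32 and the lectin gene ERLEC1 by 1.00. The 5 risers became 1 when DMSO at 4 h was left out or after centring, 2 when CPT at 15 h was and 3 when CPT at 20 h was. In the YIPF family of 7 measured genes YIPF3 rose by 1.21, YIF1B rose by 0.74, YIPF5 fell by 1.36 and 4 did not pass. Only 1 riser was left when DMSO at 4 h or CPT at 20 h was left out, and 2 members fell without DMSO at 20 h.

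Of 17 voltage-gated calcium channel genes besides CACNA1A, 11 rose and 0 fell (0 also at an unadjusted p under 0.05), with a median of 0.49, against 33.5% higher and a median of 0.34 among all genes. All of them stood low, between 3.30 and 4.30 in DMSO. The 11 became 1 when DMSO at 4 h was left out, 2 when CPT at 15 h was, 4 when CPT at 20 h was, and 3 after centring. Markers of cell types that HCT116 should lack moved alongside: 5 of 5 endothelial markers rose (summed log2 gene values of 21.5 and 21.1 in CPT late, against 17.8 and 18.5 in DMSO) and 4 of 6 fibroblast markers rose (25.8 and 24.7 in CPT late, against 22.2 and 22.2 in DMSO). With single arrays left out, 1 to 4 markers of either list rose. Of 4 neuronal markers 2 rose and 1 fell, with sums of 18.2 and 16.5 in CPT late, against 17.2 and 18.3 in DMSO. Their part in the result was not tested. Of 10 genes of PARN-like nucleases and the piRNA pathway, to which PNLDC1 belongs, 3 rose and PARN fell by 1.13; the 3 became 0 when DMSO at 4 h or CPT at 15 h was left out and 1 when CPT at 20 h was, and PARN lost its call when DMSO at 4 h or CPT at 20 h was. Of 6 germ cell markers 2 rose (0 to 3 with single arrays left out), with sums of 25.7 and 25.0 in CPT late, against 22.1 and 23.2 in DMSO. Of 6 other R3H domain genes 2 rose and 1 fell, and the fall was lost without any 1 of the DMSO or CPT late arrays; 1 rose without DMSO at 4 h or CPT at 20 h.

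For comparison, 10 of 13 p53 target genes rose and 1 fell in CPT late, with a median of 1.43, led by GADD45A (3.17), TP53INP1 (2.52) and TRIAP1 (2.51). Of 10 epithelial markers of the line 3 rose and 2 fell. EPCAM stood at 7.65 in CPT late and 7.94 in DMSO and did not pass, KRT8 rose to 8.03 in CPT late, against 7.39 in DMSO, and ESRP1 and KRT19 fell by 2.37 and 1.08.

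The gene whose values followed each member most closely over the 7 arrays was named by Pearson's r, as a description in which all points share the same arrays. It was CEP128 for WAC (r = 0.997), CMC2 for UGGT1 (0.990), SNX10 for R3HDM1 (0.993), TUBG2 for PNLDC1 (0.992) and XCR1 for TAP1 (0.997). For YIPF4 it was MMUT (0.974), for CACNA1A CHAT (0.999), for CARF CCNG2 (0.983) and for RAD51B CHTF8 (0.985). Each was the highest of 15990 genes searched, over 7 points.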

How the data were processed

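The deposited table holds 1 value per probe set and array for 7 arrays, read here as log2 values because they run from 0.96 to 13.63. Per the labels' protocols, the RNA was amplified and labelled with biotin. The tools RMA, Partek 6.08 and R 2.11.1 appear in the submitters' processing notes without their roles; for background correction and build, the sources used here give nothing. Array medians ran from 2.87 to 2.96, and the 7 arrays limit the precision.

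Opening numbers of probe set names were looked up as Gene IDs in the platform annotation and RefSeq (GRCh38.p14), and 17280 of 20649 were named. Rows with a mean above 2.95 were kept. Gene values needed at least 3 kept rows and relative values at least 5. Tests used limma 3.58.1 under R 4.3.3, with an intensity trend in eBayes, 1 mean per group over all 7 arrays, 4 residual degrees of freedom, p-values adjusted after Benjamini-Hochberg over everything tested, threshold 0.05. The steps were tested on simulated data. Python 3.11.15 with pandas 2.3.3 and matplotlib 3.10.9 made tables and figures.

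The members and the gene lists were chosen with earlier results of these data known. Named were the 9 genes, for each the highest and lowest kept probe set in both windows with other probe sets of their event, up to 4 genes past the threshold per list and the most similar gene. Other probe sets past a relative difference of 1.9 early, PNLDC1 016.1-B, WAC 005.1-C and the X probe sets by number were named after their values were seen, as were the list genes RNF20, RNF40, TAP2 and PSMB9. CPT early and CPT late share the DMSO arrays. Alternatives were gene means, no filter, a filter at the 0.75 quantile, quantile normalization, no trend, centring of arrays, each array left out and time as a block.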

Additional observations from a re-analysis of the deposited data

Results flagged for a closer look

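For 6 of the 9 genes the late response differed from the early one, which was tested as CPT late against CPT early in the same limma fit over 15990 genes, where 36.2% of all genes were higher and 19.1% lower. The difference in gene value was −1.58 for WAC (adjusted p = 0.000915), −1.09 for R3HDM1 (0.00675) and −0.75 for UGGT1 (0.0162). It was 1.23 for TAP1 (0.00127), 0.78 for PNLDC1 (0.0159) and 0.57 for CACNA1A (0.0124). WAC was lower on both late arrays (4.61 and 4.72) than on the 3 early arrays (5.78 to 6.66), and TAP1 was higher on both late arrays (5.80 and 5.44) than on the 3 early arrays (4.18 to 4.68). The CPT early arrays entered the choice of the genes through relative values, so these tests are not wholly separate from it. YIPF4 (−0.55), RAD51B (−0.50) and CARF (0.15) did not pass.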

How the results depend on the processing

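The labels give no replicate numbers, but CPT and DMSO share the times 4 h and 20 h, with 1 array each. Time as a block over these 4 arrays pairs them by time and joins both windows into 1 CPT effect. It called 0 genes for CPT early and 0 for CPT late (2029 with an unadjusted p under 0.05), in place of 15 and 8241. It called 529 relative probe set values in place of 216 and 69626. The late calls of WAC, TAP1 and PNLDC1 were lost too. With so few arrays this fit had little power, and nothing is read from the lost calls. Genes called in CPT early numbered 26 with the mean, 1 with no filter, 8 with the 0.75 quantile filter and 9 after centring, and 6 to 30 with single arrays left out. Genes called in CPT late numbered 5475 after centring and 4078 to 8009 with arrays left out; for CPT late against CPT early, with 8832 called, these were 5774 and 4854 to 9153. Relative probe set values called in CPT early numbered 107 with the 0.75 quantile filter, 1 without the trend and 19 to 222 with arrays left out. In CPT late they numbered 169154 with no filter, 37220 without the trend and 18340 to 64420 with arrays left out. For CPT late against CPT early, with 74376 called, they numbered 178785, 42466 and 29383 to 70052. Signs turned for genes that had not passed: in CPT late YIPF4 read 0.090 with no filter, RAD51B 0.076 with the 0.75 quantile filter, and CARF 0.16 with the mean, 0.049 without the 20 h DMSO array (−0.48 without the 4 h one) and 1.86 with the 0.75 quantile filter, where it passed (adjusted p = 0.00397). In CPT late against CPT early CARF read −0.056 with no filter and −0.068 after centring, and RAD51B 0.084 with the 0.75 quantile filter. The cause was not tested. Besides leaving out arrays, UGGT1 lost its late call with quantile normalization (adjusted p = 0.0506), R3HDM1 (0.0626) and CACNA1A (0.0697) with no filter. YIPF4 passed with the mean (0.016) and with the 0.75 quantile filter (0.000863). Of 1036 alternative values of single genes and probe sets, 916 kept direction, side of the threshold and size.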
